A study of Homo sapiens with 12 samples.

Results

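TIGK is a line of gingival keratinocytes, the epithelial cells that line the gum, which was immortalized with telomerase. Polyadenylated RNA of the line was sequenced from 3 untreated samples and from 3 samples exposed to 5 mM H2O2 for 3 h. A gene was examined if its raw counts in these 6 libraries averaged 10 or more, as held for 16519 of the 58735 genes counted. The other 6 of the 12 libraries came from HaCaT, an immortalized line of skin keratinocytes under the same conditions, and are used here to say where the response of TIGK differs. Both groups of TIGK are 1 line in a keratinocyte medium that contained hydrocortisone, and the sources do not state whether replicates were grown independently, so the p-values measure the spread between these samples. The treatment is written in the labels as H2O2, H2O3 and H2O4 for replicates 1, 2 and 3, while the protocol names H2O2 for all treated samples.

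Hydrogen peroxide oxidizes cysteines of proteins and damages DNA, lipids and iron-containing enzymes. Within minutes to hours, cells respond in several layers. Immediate early genes such as FOS, EGR1 and NR4A1 are switched on through kinases and preformed transcription factors, without new protein synthesis. Heat shock factor 1 induces chaperones when proteins unfold, NRF2 induces glutathione and thioredoxin enzymes when its partner KEAP1 is oxidized, and p53 induces arrest and death genes when DNA breaks. Epithelial cells of the mouth meet peroxide from bacteria and leukocytes.

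Library totals of TIGK lay between 30426401 and 44252343 counts. All replicate pairs differed by more than counting noise. Untreated replicate 3 stood apart most, since chi-square divided by its degrees of freedom was 15.2 and 11.8 against the other untreated libraries, where the other replicate pairs gave 4.53 to 6.80. Counts were normalized with edgeR's TMM method and are given as normalized counts in the order of replicates 1, 2 and 3. Log2 fold changes of H2O2 over untreated carry the SE of the quasi-likelihood fit (n = 3 per group), and a gene was called upregulated or downregulated at an adjusted p below 0.01 (Benjamini-Hochberg over all genes tested). In bulk RNA, fewer cells of a kind and less RNA per cell cannot be told apart.

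After H2O2, 1680 genes were upregulated (10.2% of the genes tested) and 2146 downregulated (13.0%). The median log2 fold change of all genes was 0.01, that of the upregulated genes 0.42 and that of the downregulated genes -0.56. The largest changes were more often falls: 135 genes rose and 468 fell past a log2 fold change of 1 in size. In 25.8% of all genes the 3 treated libraries lay above all untreated ones and in 25.6% below them. The counts of members given for each gene list are to be read against these shares.

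Markers of keratinocytes were abundant in every library. All 8 keratinocyte markers listed were tested, of which 2 were upregulated and 3 downregulated. Their summed level was 1522074 to 1543604 normalized counts in untreated and 1685568 to 1763371 in treated libraries. KRT5, the basal keratin, rose from 678962, 669780.0 and 660343 to 796615, 779504 and 799864 normalized counts, a log2 fold change of 0.24 ± 0.05 (adjusted p = 0.000416). CDH1, the epithelial cadherin, fell from 18926, 18847 and 20072 to 13026, 13261 and 13390.2 (log2 fold change -0.54 ± 0.06, adjusted p = 8.15e-07), and COL17A1, which anchors keratinocytes to the basement membrane, fell by less, with -0.33 ± 0.05 (adjusted p = 4.11e-05). Of the 7 fibroblast markers 3 were tested. All 7 together summed to 794 to 854 untreated and 914 to 925 treated, and COL1A2 was at 0. A single melanocyte, immune and endothelial marker each was tested, and none was called. The sum over all markers listed for each of these types was at most 71.4, 123 and 33.6 normalized counts in any library.

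Immediate early genes made up most of the largest rises. Of the 15 members tested of the AP-1 list (FOS, JUN, ATF and MAF factors) 10 were upregulated and 0 downregulated, with a median log2 fold change of 1.03. Of the 14 members of the EGR, NR4A and IER list 10 were upregulated and 1 downregulated, with a median of 1.48. Of the 15 Kruppel-like factors 7 rose and 2 fell, with a median of 0.53. All of the 15 largest rises were of protein-coding genes, and most belonged to these lists. Outside them, CITED2, which binds the coactivators CBP and p300, rose from 1808, 1701 and 1697 to 13026, 12222 and 13136 normalized counts, and RNF39, a RING finger protein that lies opposite PPP1R11 on chromosome 6, from 257, 338 and 262 to 1976, 1696 and 1991. CBSL, a near-identical copy of the cystathionine synthase gene CBS, went from 4.02, 6.15 and 23.7 to 321, 31.9 and 117, with a wide spread among the treated libraries. CBS itself overlapped between the groups, at 663, 255 and 374 and 395, 301 and 238, and the split of reads between the pair is uncertain. The call of CBSL was lost without treated replicate 1, where its log2 fold change was 2.72 instead of 3.77.

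CTGF, a secreted matricellular protein and a target of the YAP coactivator, held 359, 317 and 360.3 normalized counts untreated and 10862, 10015 and 10698 after H2O2. NR4A1, an orphan nuclear receptor, went from 300.4, 304 and 281 to 8730.3, 8568 and 9026. EGR1, a zinc finger factor, had 4103, 3374 and 3553 normalized counts untreated and 58786, 50633 and 60160.1 treated. In each of these the treated libraries lay far above all untreated ones, with log2 fold changes of 4.93 ± 0.08, 4.89 ± 0.08 and 3.94 ± 0.11 and adjusted p of 1.12e-18, 1.6e-18 and 7.58e-15. EGR2 and EGR3, of the same family as EGR1, rose by 3.91 ± 0.12 and 4.04 ± 0.17, EGR3 from 138, 104 and 149.7 to 1993, 2342 and 2096.

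FOS and FOSB, the partners of JUN in the AP-1 factor, rose from 929, 732 and 719.6 to 10124, 7816 and 10144 and from 199, 168 and 202 to 2976, 2777 and 3143 normalized counts. Treated replicate 2 was the lowest of its group in both, and the groups did not overlap. JUNB went from 6584, 6183 and 6122 to 46929, 44259 and 46378 and JUN from 4725, 4226 and 4211 to 22651, 20672 and 24849.6, log2 fold changes of 2.86 ± 0.07 and 2.37 ± 0.09. JUND, the member that is present at rest in most cells, rose by 0.42 ± 0.08. ATF3, a stress-induced repressor of the same family, rose by 1.55 ± 0.09 and MAFF, a small MAF protein that partners NRF2, by 1.27 ± 0.11. IER2, a nuclear early response protein, rose by 2.60 ± 0.08, whereas its relative IER5L fell from 388, 409 and 418 to 223, 260.2 and 251 (log2 fold change -0.72 ± 0.11, adjusted p = 5.42e-05). KLF2, best known from endothelium, rose from 113, 111 and 92.9 to 1771, 1621 and 1806 normalized counts. KLF6 and KLF3 rose by 1.64 ± 0.08 and 1.26 ± 0.06. KLF5 and KLF13, a factor of proliferating epithelium and a repressor, fell by 0.37 and 0.76 on the log2 scale (SE 0.06 and 0.07).

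**Figure D1:**
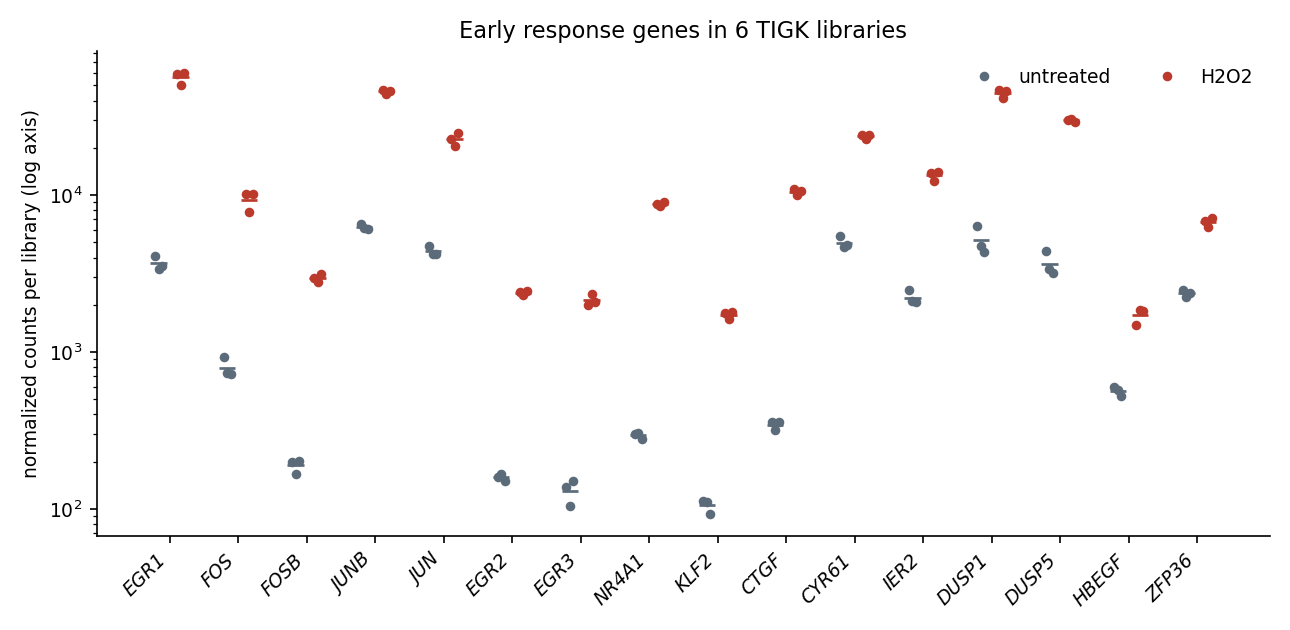
Normalized counts of 16 early response genes in the 3 untreated and 3 H2O2-treated TIGK libraries, on a log axis. Points are libraries and short lines are group means. In each of these genes the treated libraries lie above all untreated ones, from JUNB, with 6122 to 6584 untreated and 44259 to 46929 treated, to KLF2, with 92.9 to 113 and 1621 to 1806.

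Promoters of 4 genes with large rises are shown because each holds the binding motif of a factor that is known to drive it. They are the 250 bases before the start site as given by RefSeq for GRCh38.p14, from 5′ to 3′ on the strand of the gene, with motif matches in capitals. EGR1 (chr5:138465229-138465478, plus strand) has 2 CArG boxes, the motif of serum response factor, at -105 and -83 from the start site. DUSP1 (chr5:172771196-172771445, minus strand) has the cyclic AMP response element TGACGTCA at -125 and a match to the antioxidant response element TGACNNNGC, read on the opposite strand, at -115. CTGF, named CCN2 by RefSeq (chr6:131951373-131951622, minus strand), has the TEAD motif GGAATG at -169, -104 and -95, and HSPA1A (chr6:31815293-31815542, plus strand) has the heat shock element GAANNTTC at -106.
EGR1: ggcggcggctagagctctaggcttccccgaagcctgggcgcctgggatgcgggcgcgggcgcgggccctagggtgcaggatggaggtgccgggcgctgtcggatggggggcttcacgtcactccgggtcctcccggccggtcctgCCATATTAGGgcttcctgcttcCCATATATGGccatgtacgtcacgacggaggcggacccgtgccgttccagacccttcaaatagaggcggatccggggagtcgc
DUSP1: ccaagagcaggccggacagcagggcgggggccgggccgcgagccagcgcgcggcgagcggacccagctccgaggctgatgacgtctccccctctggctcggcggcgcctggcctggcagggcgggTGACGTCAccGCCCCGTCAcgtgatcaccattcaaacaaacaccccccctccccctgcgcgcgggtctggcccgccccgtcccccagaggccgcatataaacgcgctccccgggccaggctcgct
CTGF: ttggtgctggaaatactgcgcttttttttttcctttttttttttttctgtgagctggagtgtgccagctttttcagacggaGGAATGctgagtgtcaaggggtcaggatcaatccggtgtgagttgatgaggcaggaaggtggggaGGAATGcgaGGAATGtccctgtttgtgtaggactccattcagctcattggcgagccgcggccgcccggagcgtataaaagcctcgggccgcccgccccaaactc
HSPA1A: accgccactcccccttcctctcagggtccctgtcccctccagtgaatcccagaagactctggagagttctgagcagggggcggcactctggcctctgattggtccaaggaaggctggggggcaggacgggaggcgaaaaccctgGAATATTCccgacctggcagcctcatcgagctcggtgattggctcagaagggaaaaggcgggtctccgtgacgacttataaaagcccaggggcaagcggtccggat

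The motifs were searched on both strands of windows of 250 bases before and 50 bases after the start site, of which 11417 of the genes tested had at least 1. A CArG box was found in 1.29% of all 35116 windows, in 1.08% of the 16556 windows of genes tested and in 3 of 26 windows of the AP-1 and EGR lists. GGAATG was found in 14.0% of all windows, in 11.6% of those of genes tested and in 11 of 28 windows of the YAP list, and GAANNTTC in 6.77%, 4.98% and in 14 of 51 windows of the heat shock list. TGACGTCA was in 1.85% of all windows, in 2.68% of those of genes tested, in 4.08% of those of upregulated and in 2.56% of those of downregulated genes. TGACNNNGC was common in each of these sets, with 13.3%, 14.5%, 14.9% and 14.3%. In windows of upregulated and of downregulated genes the CArG box was in 1.02% and 1.37%, GGAATG in 11.9% and 10.6%, and GAANNTTC in 6.33% and 4.06%. A match is a run of letters and does not show that a factor was bound.

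Genes that end or limit such signals were upregulated as well. Of the 11 dual specificity phosphatases, which dephosphorylate MAP kinases, 6 were upregulated and 1 downregulated, with a median log2 fold change of 0.40. DUSP1, a nuclear phosphatase of p38 and JNK, rose from 6353, 4766 and 4308 to 46905, 41605 and 46404 normalized counts, DUSP5, a nuclear phosphatase of ERK, from 4427, 3365 and 3172 to 30051, 30725 and 29094, and DUSP2 by 2.26 ± 0.11. DUSP7, a cytoplasmic ERK phosphatase, moved the other way, from 6932, 6616 and 7101 to 3421, 3428 and 3186 (log2 fold change -1.04 ± 0.07, adjusted p = 1.2e-09). Of the 12 factors that destabilize or block mRNAs, 6 rose and 3 fell. ZFP36, which marks AU-rich mRNAs for decay, rose from 2482, 2257 and 2391 to 6824, 6230.0 and 7142 and the ribonuclease gene ZC3H12A from 674, 661 and 636 to 1719, 1713 and 1782. TOB1, a recruiter of the deadenylase, rose by 1.16 ± 0.06, whereas its relative TOB2 fell by 0.90 on the log2 scale (SE 0.09).

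Among the 22 genes of the EGF receptor system 5 were upregulated and 8 downregulated. Of the 8 ligands, HBEGF rose from 603, 569.6 and 528 to 1483, 1842 and 1828 normalized counts and AREG, already abundant, from 27900.5, 22599 and 21054 to 35454, 36977 and 34212. TGFA, NRG1 and EPGN fell, TGFA from 4259, 3620.3 and 3334 to 2014, 2163 and 2014. The receptors EGFR and ERBB2 fell by 0.51 and 0.28 on the log2 scale (SE 0.07 and 0.05). ERRFI1, which binds and inhibits the receptor's kinase, rose from 12316, 10737 and 10018 to 31934, 34591 and 31536 (log2 fold change 1.57 ± 0.07, adjusted p = 2.66e-12).

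Targets of YAP and TAZ moved in both directions. Of 24 targets and 6 coactivators or TEAD factors, 5 rose and 9 fell, with a median of -0.04. CYR61, the closest relative of CTGF, rose from 5451, 4695 and 4784 to 24278, 22876 and 24006 normalized counts, ANKRD1 from 5.02, 17.4 and 11.4 to 61.8, 53.5 and 57.8 and AMOTL2 by 0.90 ± 0.07. The receptor kinase gene AXL fell from 2063, 1773 and 2102 to 993, 1002 and 996 and the ectonucleotidase gene NT5E from 3027, 2643 and 2610.1 to 1352, 1494 and 1245. TEAD1 and WWTR1, which encode the DNA-binding partner and TAZ, fell by 0.85 and 0.55 on the log2 scale (SE 0.08 and 0.07), while YAP1 had a log2 fold change of -0.05 ± 0.06 (adjusted p = 0.557).

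In the TGF-beta and BMP pathways 5 of 27 members rose and 8 fell. ID1, an inhibitor of basic helix-loop-helix factors and a direct BMP target, rose from 1564, 1507 and 1354 to 3462, 3873 and 3654 normalized counts, and TGIF1, a repressor of SMAD-driven transcription, from 1611, 1530.5 and 1513 to 5376, 5852 and 5776. FST, which encodes the activin antagonist follistatin, fell from 6921, 6545 and 5777 to 2077, 2059.8 and 1792 (log2 fold change -1.70 ± 0.07, adjusted p = 1.75e-12). Of the 22 Notch pathway genes 2 rose and 7 fell. HES1, the best known Notch target, rose from 645, 579.8 and 486 to 1915, 1909 and 1922 normalized counts, while NOTCH1 and NOTCH2 fell by 0.51 and 0.95 on the log2 scale (SE 0.10 and 0.08), and NRARP, another target, had a log2 fold change of -0.63 ± 0.11.

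Of 27 p53 targets 9 rose and 4 fell, with a median log2 fold change of 0.22, and without treated replicate 1 or untreated replicate 2 the number that fell was 2. GADD45A, which acts in growth arrest after DNA damage, rose from 3815, 3327 and 3096 to 8113, 8103 and 8885 normalized counts, and its relative GADD45B from 726, 611 and 595 to 2646, 2431 and 2696. CDKN1A, the cyclin-dependent kinase inhibitor p21, rose from 6506, 5717 and 5175 to 8523, 9139 and 8984 (log2 fold change 0.62 ± 0.07, adjusted p = 3.75e-06). The pro-apoptotic genes PMAIP1 and BAX rose by 0.58 ± 0.07 and 0.41 ± 0.07. MDM2, the ubiquitin ligase of p53 and one of its targets, had a log2 fold change of -0.17 ± 0.08 (adjusted p = 0.0946), and the repair genes XPC and DDB2 of 0.31 ± 0.12 and 0.25 ± 0.08 (adjusted p = 0.0548 and 0.0212). MCL1, a survival member of the BCL2 family with a short-lived protein, rose from 14830.2, 14152 and 13415 to 28549, 28801 and 28028 normalized counts.

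Base excision repair removes oxidized bases from DNA. Of its 23 genes 7 rose and 0 fell, with small changes and a median of 0.13, and the number that rose was 4 without treated replicate 2, treated replicate 3, untreated replicate 1 or untreated replicate 3. UNG and PARP2 rose by 0.28 ± 0.05 and 0.51 ± 0.08. OGG1, the glycosylase of 8-oxoguanine, was at 299, 328 and 324 normalized counts untreated and 329, 305 and 318 treated, with a log2 fold change of 0.00 ± 0.11.

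Most chaperones of the list rose. Of 42 heat shock proteins, cochaperones and heat shock factors, 26 were upregulated and 0 downregulated, with a median log2 fold change of 0.31. Without HaCaT treated replicate 2 or 3 the number that fell was 1. By family, 6 of 12 members of the HSP70 and HSP110 group rose, 8 of 10 of HSP90 and its cochaperones, 7 of 10 of HSP40, and 5 of 10 of the small and mitochondrial chaperones and heat shock factors. HSPA1A, the inducible HSP70, rose from 5194, 5897 and 4278 to 14129, 13824 and 14161 normalized counts, a log2 fold change of 1.45 ± 0.10 (adjusted p = 1.47e-09). HSPA1B rose by 0.87 ± 0.13, and as its sequence is nearly that of HSPA1A the split of the reads between the pair is uncertain. DNAJB1 and DNAJA1, the HSP40 partners of HSP70, went from 11384, 12695 and 9059.9 to 23017, 21804 and 20218 and from 12158, 13106 and 9392 to 19566, 19441 and 19411. Untreated replicate 3 was the lowest untreated library in all 3 of HSPA1A, DNAJB1 and DNAJA1, and the groups did not overlap.

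HSP90AA1, the inducible HSP90, rose from 126036, 124754 and 117472 to 164748, 166155 and 157438 normalized counts. Its cochaperones AHSA1, CHORDC1 and STIP1 rose by 0.51 ± 0.07, 0.49 ± 0.06 and 0.39 ± 0.05. BAG3, which couples HSP70 to autophagy, rose by 0.68 ± 0.06 and the small heat shock proteins HSPB1 and CRYAB by 0.47 ± 0.06 and 0.65 ± 0.11. The heat shock factor genes themselves were at -0.01 ± 0.06 for HSF1 and 0.18 ± 0.12 for HSF2 (adjusted p = 0.92 and 0.234). HSPA6, a strictly inducible HSP70, had a log2 fold change of 0.16 ± 0.18 (adjusted p = 0.522).

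The endoplasmic reticulum answers unfolded proteins through the sensors IRE1, PERK and ATF6. Of 17 genes of this response 10 rose and 1 fell, with a median of 0.20, and 6 rose without treated replicate 1, untreated replicate 2 or untreated replicate 3. HERPUD1, which acts in degradation from the reticulum, rose from 3731, 3612 and 3090.2 to 8255, 7852 and 6999 normalized counts, SDF2L1 from 1345, 1249 and 1213 to 2092, 2139.6 and 1988 and XBP1 by 0.45 ± 0.08. ERN1, which encodes the sensor IRE1, fell from 1269.8, 1324 and 1627 to 497, 599 and 583 (log2 fold change -1.33 ± 0.10, adjusted p = 1.05e-08).

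In the integrated stress response, phosphorylated eIF2alpha favours translation of ATF4. Of its 27 genes 5 rose and 6 fell, with a median of 0.01. PPP1R15A, which brings the phosphatase to eIF2alpha, rose from 4006, 3356 and 3327 to 9133, 9315 and 9740.5 normalized counts. DDIT3, or CHOP, rose from 406, 387 and 337 to 775, 789 and 820.4 and ATF4 by 0.46 ± 0.08. Of the 18 targets 2 rose and 4 fell, with 9 above and 9 below 0 and a median of -0.01. Among the falls were 2 amino acid carriers. SLC7A5 went from 236486, 228429 and 256831 to 138302, 142788 and 141719. SLC7A11, which imports cystine for glutathione, went from 5321, 5597 and 6381 to 3031, 3048 and 2908. ASNS and CHAC1, further ATF4 targets, had log2 fold changes of -0.68 ± 0.33 and -0.48 ± 0.14 (adjusted p = 0.112 and 0.0114). Of 17 stress granule genes 3 rose and 0 fell. FXR1, a granule protein, rose by 0.53 ± 0.05, while G3BP1 and G3BP2, which nucleate granules, were at -0.14 ± 0.05 and -0.13 ± 0.05 (adjusted p = 0.0361 and 0.0417). The number that rose was 6 without HaCaT treated replicate 1, 5 without HaCaT treated replicate 3 and 1 without TIGK treated replicate 3.

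**Figure D2:**
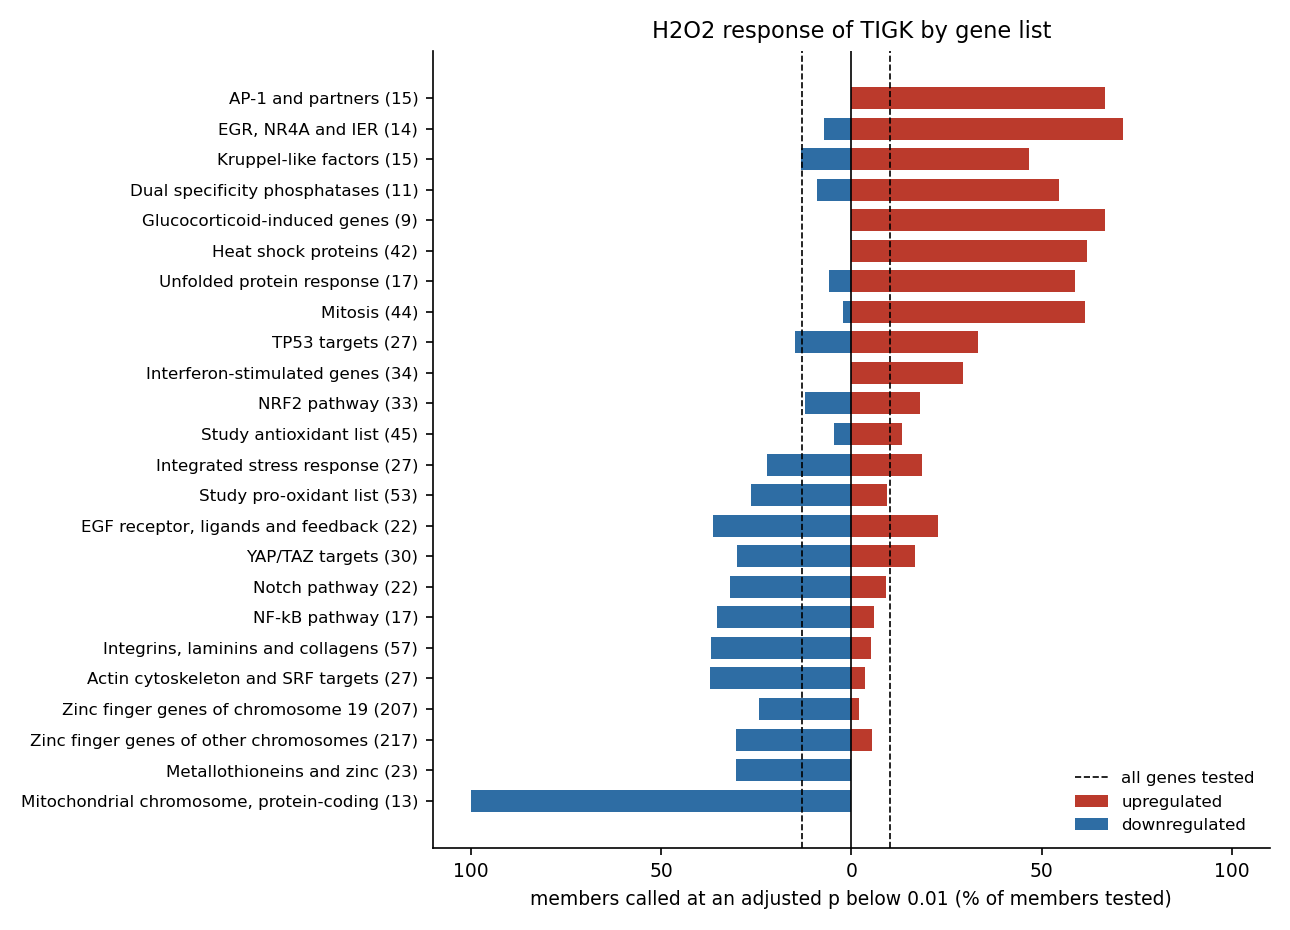
Share of the tested members of each gene list called upregulated (right) or downregulated (left) in TIGK after H2O2, in percent, with the number of members tested in parentheses. Dashed lines mark the shares of all genes tested, 10.2% and 13.0%. The AP-1 and heat shock lists reach far right with 10 of 15 and 26 of 42 members up and 0 down, and the mitochondrial protein-coding genes reach 13 of 13 on the left.

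NRF2 itself and its partners rose slightly, and few of its targets were called. NFE2L2, the gene of NRF2, rose from 4763, 4492 and 4625 to 5911, 6200.0 and 5706 normalized counts (log2 fold change 0.36 ± 0.05, adjusted p = 2.7e-05). KEAP1 and BACH1, its inhibitor and its competitor at DNA, rose by 0.26 ± 0.05 and 0.33 ± 0.06. Of 30 targets 3 rose and 4 fell. Those that rose were 1 without treated replicate 2, treated replicate 3 or untreated replicate 2, and 6 without HaCaT treated replicate 1 or 3, and the number that fell in the whole list was 1 without treated replicate 1 or 2, and 2 without treated replicate 3, untreated replicate 2 or untreated replicate 3. HMOX1, heme oxygenase 1, was at 164, 225 and 155 normalized counts untreated and 234, 198 and 204 treated, which overlapped (log2 fold change 0.22 ± 0.20, adjusted p = 0.404). NQO1 had a log2 fold change of -0.07 ± 0.08 (adjusted p = 0.547) and TXNRD1, thioredoxin reductase 1, of 0.11 ± 0.06 (adjusted p = 0.174). TRIM16 was the target with the largest rise among those called, 0.55 ± 0.07, and SLC7A11 the one with the largest fall, -0.94 ± 0.07.

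Of the study's own list of antioxidant genes 45 were tested, of which 6 rose and 2 fell, with a median of 0.20. Per its methods, the study took this list from GeneCards and refined it by earlier literature. Like the other lists, it was used here with earlier results of these data known. The number that rose was 12 without HaCaT treated replicate 1 and 11 without HaCaT treated replicate 3. PRDX5, a peroxiredoxin of mitochondria and peroxisomes, rose from 4755, 4552 and 4231 to 5958, 6290.1 and 6265 normalized counts. Catalase (CAT) and the superoxide dismutases SOD1 and SOD2 were not called, with log2 fold changes of 0.13 ± 0.08, 0.25 ± 0.10 and -0.04 ± 0.06 (adjusted p = 0.202, 0.0554 and 0.665). Those that fell were metallothioneins, small cysteine-rich proteins that bind zinc and copper. MT2A went from 41189.7, 32898 and 34187 to 21505, 22043 and 18419 and MT1E from 8977, 9108 and 7287 to 3622, 3809 and 3947.

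Other genes of zinc handling were among the falls. Of 4 metallothioneins and 19 zinc transporters or sensors, 0 rose and 7 fell, with a median of -0.20, and 1 rose without any of the treated HaCaT libraries. SLC30A1, which exports zinc and is induced by it, fell from 4819.9, 4571 and 5014 to 2734, 2914 and 2846 normalized counts, and MTF1, the zinc sensor that drives both SLC30A1 and the metallothioneins, from 1363, 1381 and 1398 to 889.5, 938 and 979. For iron, 2 of 23 genes rose and 3 fell. SLC11A2, an importer of iron whose mRNA is stabilized by iron regulatory proteins, rose from 907, 924 and 879.7 to 1309, 1207 and 1296, and TFRC, the transferrin receptor with the same kind of control, fell by 0.33 on the log2 scale (SE 0.05). Without treated replicate 2, treated replicate 3 or untreated replicate 2 a single iron gene rose.

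Of the aryl hydrocarbon receptor and retinoid genes 1 of 10 rose and 4 fell. ALDH1A3, which makes retinoic acid, fell from 5009.7, 4891 and 4958 to 1338, 1346 and 1367 normalized counts (log2 fold change -1.87 ± 0.06, adjusted p = 1.1e-14), CYP26B1, which degrades it, from 388, 307 and 282 to 179.7, 162 and 174, and AHRR, a repressor of the aryl hydrocarbon receptor, from 643, 617 and 619 to 232, 206 and 196. TIPARP, a further target of that receptor, rose from 5745, 5237 and 5503 to 9991, 10932 and 10311. In cholesterol synthesis and uptake 8 of 28 genes rose and 1 fell, where the falls were 0 without treated replicate 2 or untreated replicate 3 and 2 without treated replicate 3 or HaCaT treated replicate 3. INSIG1, a sterol sensor partner, rose by 0.69 ± 0.06 and HSD17B7 by 0.66 ± 0.10. Of 15 hypoxia targets 4 rose and 0 fell, with ADM, a vasodilator peptide, at 3876, 3505 and 3179 normalized counts untreated and 8243, 7908 and 8428 treated.

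Transcripts of the mitochondrial chromosome fell throughout. Its 37 genes encode 13 respiratory subunits, 2 rRNAs and 22 tRNAs, and all 16 that were tested were downregulated. Together they held 3.41%, 3.33% and 3.45% of the counts in untreated and 1.50%, 1.40% and 1.39% in treated libraries. The means were 3.39% ± 0.06 and 1.43% ± 0.06 (SD, n = 3), which differed with a two-sided exact permutation p = 0.1, the smallest that 3 libraries against 3 allow. Without the rRNAs and tRNAs the means were 2.91% and 1.28%.

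The genes fell by very different amounts. MT-ND6, the single subunit read from the light strand, fell to 6.89% of its untreated level, from 13849, 12619.9 and 14214 to 1013, 824 and 968 normalized counts. It adjoins MT-ND5 on the opposite strand, with MT-ND5 ending at base 14148 and MT-ND6 starting at 14149. Reads from MT-ND5 transcripts that run past this border cannot be told apart from those of MT-ND6 where strand was not used. MT-ND5, at the far end of the heavy strand transcript together with MT-CYB, fell to 10.0%, from 53802, 52701 and 60018 to 6161, 5456 and 5062, and MT-CO1, the core of cytochrome oxidase, from 324255, 328285 and 309007 to 70514, 62778 and 59289.7 (log2 fold change -2.32 ± 0.06). MT-CYB, MT-ND4 and MT-ND1 were left at 51.4%, 50.9% and 55.3%, and MT-CO2 and MT-ND2 at 69.4% and 71.0%. MT-ND4L, whose reading frame overlaps that of MT-ND4 on 1 bicistronic mRNA, was at 40.1%. Of the rRNAs, MT-RNR2 fell to 28.5% and MT-RNR1 to 46.0%, but rRNAs and tRNAs are captured poorly by selection for poly(A). The untreated and treated libraries did not overlap in any of the 16 genes. Nuclear copies of mitochondrial genes moved with their parents: MTCO1P12, a copy of MT-CO1, had a log2 fold change of -2.16 ± 0.11 and MTND2P28, a copy of MT-ND2, of -0.88 ± 0.06, and reads of copy and parent may have been split by the counting.

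The study's own list of pro-oxidant genes, which has the same sources as its antioxidant list, holds many of these. It too was used here with earlier results of these data known. Of 53 members tested 5 rose and 14 fell, with a median of -0.09, and 12 of the 14 falls were mitochondrially encoded subunits. The other two were CYP1A1 and CYP26B1. ETFA, which passes electrons from fatty acid oxidation to the respiratory chain, rose from 3928, 3987 and 3599 to 4936, 5104 and 5191 normalized counts. The number of rises was 8 without HaCaT treated replicate 1 and 3 without treated or untreated replicate 3.

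**Figure D3:**
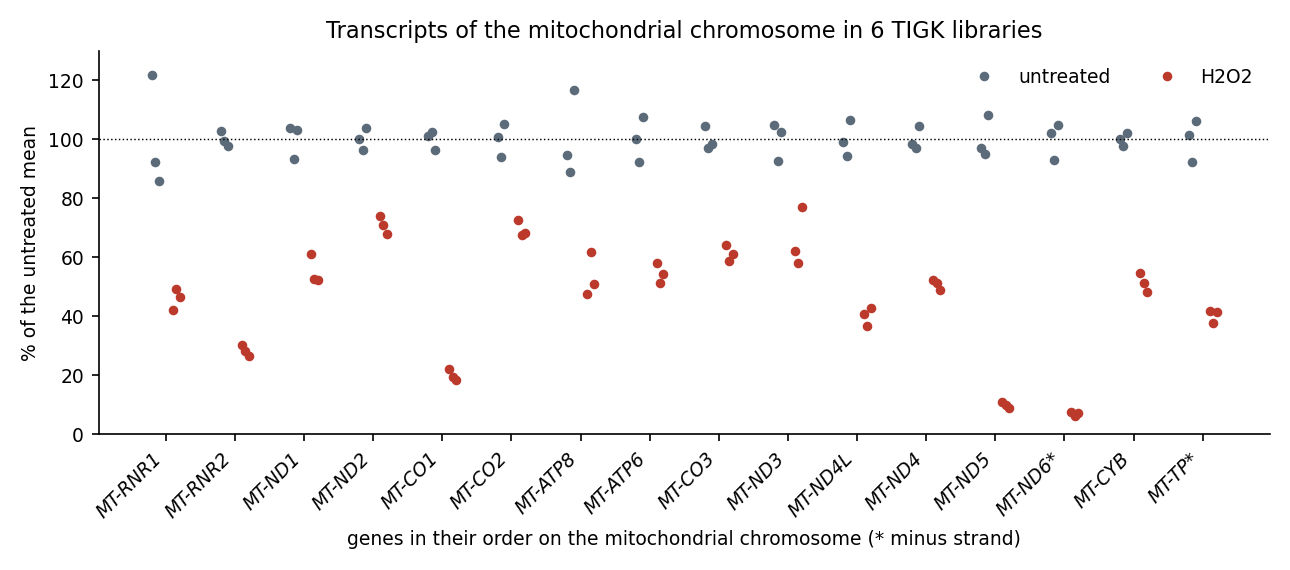
Level of each mitochondrial gene tested in the 3 untreated and 3 H2O2-treated TIGK libraries, in percent of the mean normalized count of the untreated libraries, with genes in their order on the chromosome. Points are libraries and the dotted line marks the untreated mean. The gap between groups is widest for MT-ND6 (6.89% of the untreated level left) and MT-ND5 (10.0%) and narrowest for MT-ND2 (71.0%).

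Nuclear genes for mitochondria were seldom among the falls. Of 74 nuclear subunits of the respiratory chain and ATP synthase 9 rose and 0 fell, with a median log2 fold change of 0.22. NDUFB5 of complex I rose by 0.42 ± 0.07, SDHD of complex II by 0.43 ± 0.08 and ATP5MC2 of the ATP synthase by 0.45 ± 0.09. Of 77 mitochondrial ribosomal proteins 19 rose and 1 fell, with a median of 0.25, and MRPS31 rose by 0.58 ± 0.09. TFAM and POLRMT, the packaging factor and RNA polymerase of the mitochondrial chromosome, were at 0.07 ± 0.05 and -0.01 ± 0.08 (adjusted p = 0.328 and 0.93). POLG, its DNA polymerase, fell by 0.37 on the log2 scale (SE 0.05), and PPARGC1B, a coactivator of mitochondrial genes, from 1052, 1008 and 1387 to 622, 656 and 631 normalized counts.

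These counts of small rises depended on single libraries and on the fit. The respiratory list had 3 rises without treated or untreated replicate 3, but 26 and 31 without HaCaT treated replicates 1 and 3, which are part of the same fit. The mitochondrial ribosomal list had 9 to 11 rises without a treated library or untreated replicate 3, and 39 without either of the same HaCaT libraries. Of 87 cytosolic ribosomal proteins 5 rose and 1 fell, with a median of 0.27. Their number of rises was 0 or 1 without any treated library or untreated replicate 2 or 3, 3 without any untreated HaCaT library, and 27 and 44 without HaCaT treated replicates 1 and 3. Of 46 proteasome genes 9 rose and 1 fell, with a median of 0.18, and 2 to 4 rose without a treated library or untreated replicate 3, but 17 and 16 without those HaCaT libraries. Of 29 glycolysis and pentose phosphate genes 4 rose and 3 fell. There 0 rose without treated replicate 2, 2 without treated replicate 1 or untreated replicate 3, and 11 and 10 without HaCaT treated replicates 1 and 3, while 1 fell without treated replicate 3 or untreated replicate 1 or 2. PSME4, a proteasome activator, was the proteasome gene that fell, from 7320.2, 7117 and 8262 to 4723, 4858 and 4783 normalized counts. With edgeR on the 6 TIGK libraries alone, 28 respiratory, 39 mitochondrial ribosomal and 39 cytosolic ribosomal genes rose. The same fit gave 17 rises for the proteasome and 7 for glycolysis and pentose phosphate. With no filter on low counts these 5 numbers were 45, 48, 76, 24 and 11. With replicate number as a block in the fit of both lines, 1 cytosolic ribosomal and 4 proteasome genes rose.

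Most mitotic genes of the list were upregulated. Of 44 members 27 rose and 1 fell, with a median log2 fold change of 0.39. The kinase genes AURKA and TTK rose from 1892, 1842 and 1822 to 3142, 3186 and 3080.1 and from 932, 1096 and 1166 to 1899, 1847 and 1717 normalized counts. Among the spindle genes 18 of 26 rose, with HMMR at 703, 716 and 648 untreated and 1209, 1415 and 1252 treated, KIF18A at 0.73 ± 0.10 and NDC80, a kinetochore protein, at 0.72 ± 0.11. CCNF, an F-box protein of the G2 phase, was the member that fell, from 1348, 1646 and 1485 to 1114, 1082 and 1089.

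Replication and G1/S genes were mixed, with 11 of 47 up and 7 down. The replication factors RPA2 and MCM6 rose by 0.41 ± 0.06 and 0.32 ± 0.05, and POLE, the leading strand polymerase, fell from 7914, 7497 and 8352 to 4951, 4848 and 5019 normalized counts. The cyclins CCND2 and CCNE2 fell by 0.52 and 0.55 on the log2 scale (SE 0.09 and 0.10). Without treated replicate 1 the number of rises was 7, and without treated replicate 2 or 3 that of falls was 4. Of 45 histone genes 4 rose and 0 fell, with HIST1H2BD at 277, 239.7 and 249 untreated and 392, 397 and 448 treated, and 2 rose without treated replicate 2 or untreated replicate 3. Selection for poly(A) misses most histone mRNA, which lacks a tail.

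More zinc finger genes fell than rose. Of 207 ZNF genes on chromosome 19, where most genes for KRAB repressors lie, 4 rose and 50 fell, with a median log2 fold change of -0.34. Of 217 ZNF genes on other chromosomes 12 rose and 66 fell, with a median of -0.24. ZNF681 went from 242, 275 and 256 to 122, 74.2 and 94.5 normalized counts, ZNF107 from 302, 385 and 344 to 112, 141 and 139.9 and ZNF141 from 222, 203 and 168 to 49.2, 82.7 and 72.7. Among those that rose were ZNF480, from 337, 337 and 342 to 698, 648 and 591, and ZNF608, from 44.2, 47.1 and 54.7 to 173, 155 and 181. The number of rises on chromosome 19 was 8 without HaCaT treated replicate 1, and that on other chromosomes 7 without TIGK treated replicate 1. ZNF genes share long stretches of sequence, so reads may have been lost or split among them.

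Splicing regulators moved in both directions. The CDC2-like kinases CLK4, CLK2 and CLK1, which phosphorylate SR proteins, fell by 1.13, 0.63 and 0.55 on the log2 scale (SE 0.11, 0.08 and 0.08), CLK4 from 801, 774 and 740.3 to 310.2, 354 and 387 normalized counts. TRA2B and SRSF10, which they act on, rose by 0.41 ± 0.05 and 0.25 ± 0.05. Of the 20 genes of the list 5 rose and 4 fell, and 2 or 3 rose without any treated library, untreated replicate 2 or 3 or any untreated HaCaT library.

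Many host genes of microRNAs fell. Of 20 tested 0 rose and 10 fell, with a median log2 fold change of -0.53. MIR17HG, the host of the miR-17-92 cluster on chromosome 13, went from 227, 210.0 and 216 to 22.9, 29.1 and 32.8 normalized counts, a log2 fold change of -2.92 ± 0.18 (adjusted p = 5.51e-10). MIR34AHG, on chromosome 1 and host of the p53 target miR-34a, fell from 84.4, 59.4 and 34.1 to 11.4, 9.39 and 4.69, and MIR503HG, on the X chromosome, from 835, 783 and 774 to 193, 228 and 182. MIR29B2CHG, also on chromosome 1, was at 36.2, 21.5 and 36.1 and 4.58, 10.3 and 6.25, the lowest of these levels. Reads of LNCTAM34A, which overlaps MIR34AHG on the opposite strand, cannot be told apart where strand was not used. Mature microRNAs were not measured in these libraries.

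The microRNAs that lie in these hosts show which seeds the falling transcripts carry. Mature sequences are from RefSeq for GRCh38.p14, with the seed (bases 2 to 8) in capitals, and 12 mature sequences lie in MIR17HG, 4 in MIR29B2CHG and 2 in MIR34AHG. In MIR17HG, miR-17-5p and miR-20a-5p share the seed AAAGUGC and miR-19a-3p and miR-19b-3p the seed GUGCAAA. In MIR29B2CHG, miR-29b-3p and miR-29c-3p share AGCACCA.
miR-17-5p: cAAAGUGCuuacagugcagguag
miR-20a-5p: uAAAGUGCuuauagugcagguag
miR-18a-5p: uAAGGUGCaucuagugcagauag
miR-19a-3p: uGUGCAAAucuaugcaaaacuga
miR-19b-3p: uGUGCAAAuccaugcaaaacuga
miR-92a-3p: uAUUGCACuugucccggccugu
miR-34a-5p: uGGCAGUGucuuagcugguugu
miR-29b-3p: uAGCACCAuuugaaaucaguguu
miR-29c-3p: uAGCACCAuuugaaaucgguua

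Host genes of small nucleolar RNAs did not share this fall. Of 26 tested 5 rose and 1 fell, with a median of 0.23. SNHG1 rose from 5858, 5661 and 5045 to 7498, 7146 and 7601 normalized counts. Over both kinds of host, the 5 rises were 9 without HaCaT treated replicate 3, 3 without HaCaT untreated replicate 2 or TIGK treated replicate 3, and 2 without untreated replicate 3.

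By biotype, protein-coding genes supplied 3527 of the calls. Among them 12.1% rose and 14.1% fell, with a median log2 fold change of 0.03. In most noncoding classes falls outnumbered rises. Of 800 antisense RNAs 10 rose and 71 fell (median -0.23), of 632 lincRNAs 13 and 41 (median -0.05), and of 138 genes annotated as TEC (to be experimentally tested) 0 and 27 (median -0.60). Of 252 transcribed unprocessed pseudogenes 4 rose and 36 fell. Of 619 processed pseudogenes, which derive from mRNAs and share their sequence, 12 rose and 14 fell, with a median of 0.10. Noncoding genes were sparse, with a median level of 26.3 normalized counts for antisense RNAs and 28.2 for lincRNAs against 894 for protein-coding genes, and at such levels small changes cannot be called.

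AL049840.1, antisense to KLC1 on chromosome 14, had the largest fall among the antisense RNAs that qualified to be named, from 179.8, 186 and 209.6 to 30.9, 49.8 and 17.2 normalized counts. PAX8-AS1, on chromosome 2, fell from 349.6, 447 and 341 to 103, 104 and 70.3, and AC104447.1, a TEC gene of chromosome 3, from 126, 106 and 104 to 10.3, 20.7 and 31.3. On the same chromosome the lincRNA AC006058.1 fell from 396, 463 and 339.7 to 46.9, 77 and 78.9 and the TEC gene AC006058.4, which overlaps it on the opposite strand, from 165, 191 and 135 to 38.9, 12.2 and 18.8, so that their reads cannot be told apart where strand was not used. AC004943.2, antisense to ZFHX3, rose from 239, 277 and 249 to 487, 442 and 516. MALAT1 and NEAT1, the abundant nuclear lincRNAs, overlapped between groups, with log2 fold changes of -0.28 ± 0.15 and -0.45 ± 0.18 (adjusted p = 0.165 and 0.063).

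Shares of all counts changed as well. Antisense RNAs held 0.193% of the counts untreated and 0.171% treated, lincRNAs 0.289% and 0.264%, and TEC genes 0.0293% and 0.0198%. Processed pseudogenes went from 0.333% to 0.375% and protein-coding genes from 98.1% to 98.5%. With counts of the mitochondrial chromosome left out of the total, protein-coding genes went from 98.55% to 98.65%. Each of these pairs of groups did not overlap and had the smallest exact two-sided permutation p that is possible here, p = 0.1.

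The calls also varied with gene length. When the genes tested were ordered by exon length and cut into 5 groups of equal size, the shortest (67 to 2201 bases) had 228 rises and 159 falls and the longest (7714 to 205012 bases) 251 rises and 833 falls. The medians from the shortest to the longest group were 0.09, 0.09, 0.04, -0.03 and -0.10. HaCaT had 626 rises and 204 falls in the shortest and 271 and 1075 in the longest group. Length also moved with a library: in untreated replicate 3 the median deviation from the mean of the untreated libraries was -0.061 on the log2 scale for the shortest and 0.061 for the longest genes. Its part in the results for short and long genes was not tested.

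**Figure D4:**
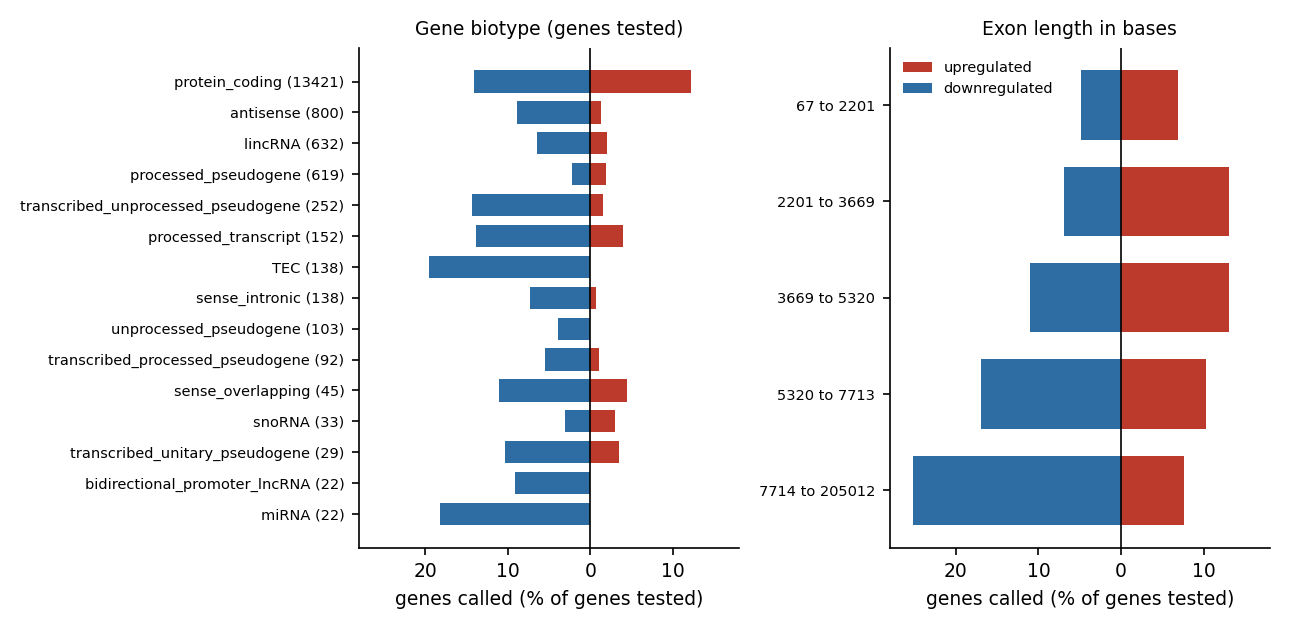
Share of genes tested that were called upregulated (right) or downregulated (left) in TIGK after H2O2, in percent, by biotype with at least 20 genes tested (left panel, number tested in parentheses) and by exon length in 5 equal groups (right panel). Falls outnumber rises in most noncoding classes, and the share of falls grows with length from 4.81% to 25.2%.

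Long genes for adhesion and the cytoskeleton were among those that fell. Of 57 integrin, laminin and collagen genes 3 rose and 21 fell, with a median log2 fold change of -0.23. ITGA2, a collagen receptor subunit, fell from 4030.3, 4447 and 4075 to 1436, 1502 and 1509.6 normalized counts (adjusted p = 8.65e-13). ITGA3 and ITGA5, subunits of a laminin and a fibronectin receptor, fell by 0.46 and 0.59 on the log2 scale (SE 0.05 and 0.06). LAMA3 and LAMB3, chains of laminin 332 of the basement membrane, fell from 47100.5, 46013 and 50236 to 30169, 30677 and 28815 and from 54437, 51545 and 48708 to 29139.8, 30272 and 29386. The number of rises was 1 without treated replicate 3 or untreated replicate 1.

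Of 27 actin cytoskeleton genes, many of them targets of serum response factor, 1 rose and 10 fell, with a median of -0.09. MYH9, nonmuscle myosin, fell from 76777, 74546 and 82428 to 42062, 41458 and 42353 normalized counts and VCL, vinculin, from 9144, 9492 and 10069 to 5714, 5512 and 5366. SRF, the gene of the factor itself, was the member that rose, from 3223, 3176 and 3365 to 4034, 4266 and 4069, and 3 rose without HaCaT treated replicate 1 or 3. AKAP12, a scaffold that binds protein kinase A and actin, had one of the largest falls, from 11368, 10571 and 13276 to 1861, 2309 and 1700.2 (log2 fold change -2.59 ± 0.10, adjusted p = 8.75e-13). CEMIP, which degrades hyaluronan, fell from 171, 249 and 247 to 46.9, 27.2 and 43 and SLC7A2, a carrier of arginine, from 3501, 3096 and 4094 to 804, 861 and 712. SYT12, a synaptotagmin, and DDR2, a collagen receptor kinase, fell from 199, 227 and 236 to 35.5, 22.5 and 46.9 and from 127, 84 and 114 to 20.6, 15 and 28.9, and FAM167A from 505, 453 and 658 to 117, 120.2 and 95.3.

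Markers of differentiation that were called moved in both directions, and they were few. Of 31 keratin genes 3 rose (9.68%) and 1 fell (3.23%). Of 35 epidermal differentiation genes 3 rose (8.57%) and 6 fell (17.1%). Over all genes tested the shares were 10.2% and 13.0%. FLG, the profilaggrin gene of the late epidermis, fell from 163, 169 and 255 to 26.3, 43.2 and 85.2 normalized counts (log2 fold change -1.84 ± 0.27), with treated replicate 3 the highest of its group. S100A10 and S100A11 rose by 0.34 ± 0.06 and 0.31 ± 0.05. DSP, the desmosomal linker, fell from 68002, 70428 and 84302 to 53633, 54926 and 55743, with untreated replicate 3 the highest of all. Of 18 factors of the keratinocyte lineage 6 rose and 1 fell, and 2 rose without treated replicate 3, 3 without untreated replicate 2, and 0 fell without treated replicate 1 or untreated replicate 2 or 3. GRHL2 and OVOL2, which keep cells epithelial, rose by 0.76 ± 0.07 and 0.57 ± 0.11. The differentiation list had 3 falls without untreated replicate 1 and 5 rises without HaCaT treated replicate 1, and the keratin list 5 rises without HaCaT treated replicate 1 or 3, 1 rise without treated replicate 1, and 0 falls without treated replicate 1, treated replicate 3 or untreated replicate 1.

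Among inflammatory genes, more of the NF-kB pathway fell than rose. Of its 17 genes 1 rose and 6 fell. The falls took in both the subunits and their inhibitors. Of the 5 subunits 0 rose and 3 fell, with a median log2 fold change of -0.28, and 1 to 4 fell with 1 library left out. Among the negative regulators, TNFAIP3 fell from 4441, 4077 and 3878 to 2413, 2736 and 2282 normalized counts. NFKBIA fell by 0.38 on the log2 scale (SE 0.07). The single rise was kept only when the library left out was HaCaT treated replicate 1 or 3 or TIGK treated replicate 3, and was lost without each of the other 9 libraries. The number that fell was 4 without untreated replicate 3. Of 25 cytokines and chemokines 2 rose (8%) and 4 fell (16%), against 10.2% and 13.0% of all genes tested. IL1A, the alarmin of keratinocytes, rose from 1608, 1459.8 and 1350.5 to 2266, 2499 and 2249 and IL18 from 2849, 2908 and 2830.0 to 4276, 4323 and 4246, while the neutrophil chemokine gene CXCL1 fell from 736, 638 and 526 to 242, 237 and 282. CXCL8 overlapped between groups, with a log2 fold change of -0.26 ± 0.14 (adjusted p = 0.18). Without treated replicate 2 or untreated replicate 1 the cytokines that fell were 2.

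Of 34 interferon-stimulated genes 10 rose and 0 fell, with a median log2 fold change of 0.25. Among the antiviral effectors 9 of 18 rose, IFIT1 from 891, 717 and 635 to 1320.0, 1563 and 1629 normalized counts, IFIT3 by 0.77 ± 0.13 and IFI44L by 0.81 ± 0.16. Among the factors and antigen presentation genes 1 of 16 rose, STAT2 by 0.46 ± 0.08, while IRF1 was at -0.21 ± 0.14 (adjusted p = 0.26). The number there was 4 and 3 without HaCaT treated replicates 1 and 3 and 2 without untreated replicate 2.

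Of 9 genes that glucocorticoids induce 6 rose and 0 fell, with a median of 1.35. DUSP1, ERRFI1 and KLF9, given above or in other lists, are among them. TSC22D3, the leucine zipper GILZ, rose from 743, 749 and 755 to 1879, 1913 and 1934 normalized counts and SGK1, a kinase, from 2596, 2152 and 2149.6 to 6404, 6219 and 6066. FKBP5 and PER1, the most used reporters of the receptor, were not called, with log2 fold changes of 0.04 ± 0.05 and 0.19 ± 0.09 (adjusted p = 0.597 and 0.0973). Among 17 clock genes BHLHE40 rose from 1083, 1117 and 991 to 2472, 2652 and 2582, NR1D1 by 0.85 ± 0.09, and CRY2 fell by 0.76 on the log2 scale (SE 0.08).

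The response of HaCaT was fitted with that of TIGK, and the lines have no control libraries in common. In HaCaT 3105 of the genes tested rose (18.8%) and 2486 fell (15.05%). Of the genes that rose in TIGK 64.6% also rose in HaCaT, which are 34.9% of those that rose there. Of those that fell 61.4% also fell in HaCaT, which are 53.0% of those that fell there. The difference of the responses, TIGK minus HaCaT, passed the test as positive for 385 genes (2.33% of the genes tested) and as negative for 501 (3.03%). With library sizes taken without the mitochondrial chromosome the split was 520 and 360, with DESeq2's size factors 446 and 408, and with upper-quartile factors 455 and 415. Leaving out HaCaT treated replicate 1 gave 742 positive differences. The negative ones were 301 without HaCaT untreated replicate 2 or TIGK treated replicate 2, 321 and 297 without HaCaT treated replicate 2 and untreated replicate 1, and 277 and 212 without TIGK treated replicate 3 and untreated replicate 2.

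CTGF rose far more in TIGK. Its level was 345 ± 24.8 normalized counts untreated and 10525 ± 449 treated in TIGK, and 326 ± 34.8 and 747 ± 17 in HaCaT (mean ± SD, n = 3). The difference of the log2 fold changes was 3.73 ± 0.11 (adjusted p = 6.69e-14). DUSP5 had log2 fold changes of 3.03 ± 0.09 in TIGK and 0.14 ± 0.09 in HaCaT, a difference of 2.89 ± 0.13 (adjusted p = 3.99e-11). EGR3 differed by 3.09 ± 0.22 (adjusted p = 3.9e-08), although the lines started from different levels, 131 ± 23.4 in TIGK and 334 ± 21.5 in HaCaT. ARL14, a small GTPase, rose in TIGK and fell in HaCaT (log2 fold changes 1.89 and -0.82).

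Within the early gene families the members diverged. FOS rose less in TIGK than in HaCaT (log2 fold changes 3.56 and 6.26, adjusted p of the difference = 1.56e-07), as did EGR1, with 3.94 and 5.99 (adjusted p = 4.39e-08), and ATF3, with 1.55 and 3.53 (adjusted p = 7.41e-09). JUN, KLF6 and ERRFI1 rose more in TIGK. KLF6 had 1.64 against -0.12 (adjusted p = 6.56e-09), ERRFI1 1.57 against 0.25 (adjusted p = 4.39e-08) and JUN 2.37 against 1.21 (adjusted p = 2.18e-06). NR4A1 had 4.89 and 4.54, and its difference did not pass the test (adjusted p = 0.0509).

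The most negative differences were ranked among genes with separate TIGK groups and a TIGK group mean of 100 or more normalized counts. Those genes rested on few counts in untreated HaCaT, so the size of their change there is uncertain. ARC, an early gene of neurons, held 186 ± 20.1 normalized counts untreated and 269 ± 23.2 treated in TIGK, where the change was not called (adjusted p = 0.0728), and 9.54 ± 6.46 and 147 ± 43 in HaCaT. SNAI1, a repressor of CDH1, held 84.3 ± 8.01 and 146 ± 13.5 in TIGK and 4.02 ± 4.55 and 51.1 ± 15 in HaCaT, a difference of log2 fold changes of -2.91 ± 0.60 (adjusted p = 0.00322), a call that was lost without treated replicate 2 or 3 or HaCaT treated replicate 2 or untreated replicate 1. TNFRSF1B, a receptor of tumour necrosis factor, differed by -2.81 ± 0.52 (adjusted p = 0.0013). CXCL1 fell in TIGK and rose in HaCaT (log2 fold changes -1.32 and 0.88, adjusted p of the difference = 4.54e-07), and PLAU, the urokinase gene, rose in TIGK and fell in HaCaT, with 0.64 and -0.78 (adjusted p = 1.08e-08).

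**Figure D5:**
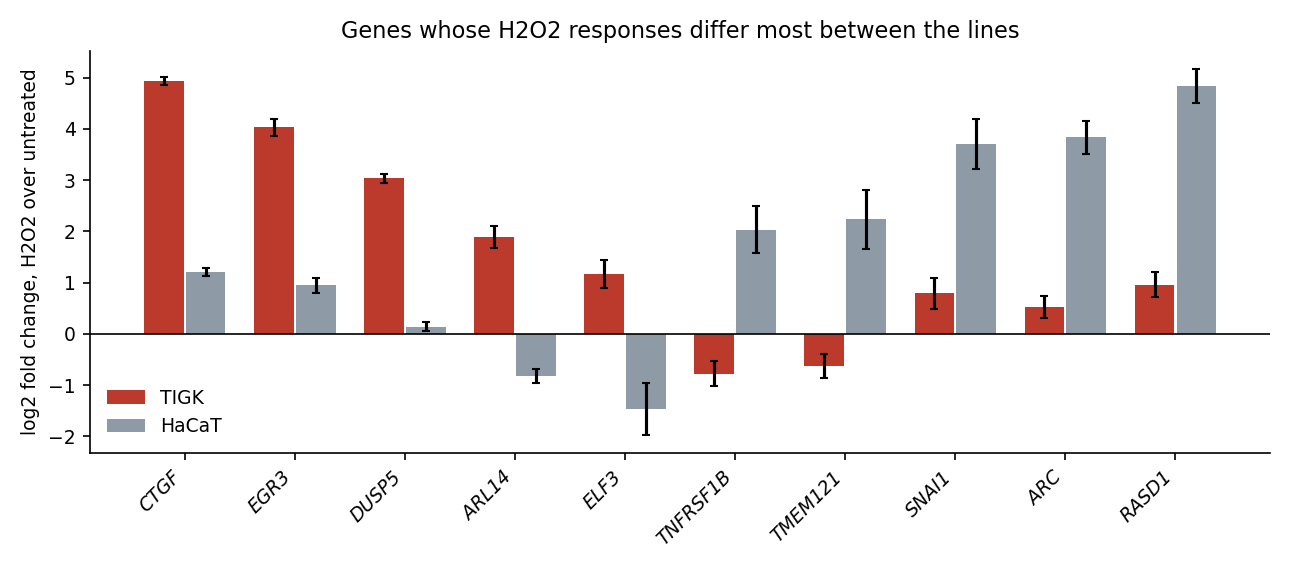
Log2 fold changes of H2O2 over untreated, with the SE of the fit as error bars, in TIGK and in HaCaT. Shown are the 5 largest positive and 5 largest negative differences among a limited set of genes. These had a TIGK group mean of 100 or more normalized counts and no overlap between untreated and treated TIGK libraries. Genes that were low in TIGK or changed only in HaCaT were thus left out. CTGF, with 4.93 against 1.20, lies at the positive end and RASD1, with 0.96 against 4.83, at the negative end, where the rise of RASD1 in TIGK lost its call without treated replicate 2 or 3 or untreated replicate 2 or 3.

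Of the 16 mitochondrial genes 7 fell further in TIGK by the test of the difference, 0 fell less, and 9 did not pass. MT-ND5 fell further in TIGK, with log2 fold changes of -3.32 and -1.48, a difference of -1.84 ± 0.09 (adjusted p = 3.88e-10), as did MT-CO1, with -2.32 and -1.38 (adjusted p = 1.89e-07). MT-RNR2 and MT-RNR1 had differences of 0.24 ± 0.08 and -0.12 ± 0.13, which did not pass (adjusted p = 0.0494 and 0.611), nor did that of MT-TP, a tRNA gene, at 0.59 ± 0.16 (adjusted p = 0.0176). Of the 42 chaperone genes 26 rose in TIGK and 25 in HaCaT, with HSP90AA1 at 0.41 and 0.47 (adjusted p of the difference = 0.628).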

How the data were processed

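RNA of TIGK and HaCaT keratinocytes was sequenced in 12 libraries, 3 per line and condition. The authors deposited raw counts per gene for all libraries. Per the study's methods and the labels, poly(A) RNA was sequenced in pairs, reads were aligned to GRCh38 with Hisat2 and counted with featureCounts, and versions of Hisat2 differ between these sources. Strand use and the annotation release are not given in the sources used here. Columns of the deposited table other than the counts served only for gene names, positions, biotypes and lengths.

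Genes whose raw counts averaged 10 or more over the 6 TIGK libraries were kept. All 12 libraries were fitted together in edgeR 4.0.16 (R 4.3.3) with TMM factors and 1 mean per group, tested by quasi-likelihood F-tests, and p-values of the 16519 genes were adjusted together by the Benjamini-Hochberg method. The common dispersion was 0.00723. The difference of the responses is the interaction in the same fit. Shares were compared by two-sided exact permutation tests, for which 0.1 is the smallest p. DESeq2 1.42.0, other size factors, other filters and limits, and leaving out each library were tried as alternatives. The steps were tested on simulated counts. Intervals are SE or SD over libraries, and TIGK depth was 30426401 to 44252343 counts.

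The members and the 64 gene lists were chosen with earlier results of these data known. Genes were named from the 15 largest rises and falls among called genes with separate groups. The higher group had to average 100 or more normalized counts. Up to 4 rises and falls per list and role were added, plus members looked for first. Also named were 3 per noncoding biotype and genes the study names in its own lists. The 5 largest differences in each direction were taken from genes whose TIGK groups met the same conditions of level and separation. Not every gene that qualifies is named, and a few are not reported here.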

Additional observations from a re-analysis of the deposited data

Results flagged for a closer look

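The response of TIGK to H2O2 differed from that of HaCaT, by the test of the difference itself in the fit over both lines (edgeR quasi-likelihood, adjusted p below 0.01), for 70 of the 233 genes named above. The difference of log2 fold changes, TIGK minus HaCaT, was positive for 28 and negative for 42. Of all genes tested, 2.33% had a positive and 3.03% a negative difference past the test. Genes were named in part for a large response or a large difference, so their share is not an estimate for all genes. In 50 of the 70 the difference passed under every alternative setting and with each library left out in turn. The call was lost in at least 1 of these for the other 20, which are AC006058.1, AC104447.1, CDKN1A, CHAC1, CLK1, DSP, GADD45A, HBEGF, HSPA1B, JUNB, LAMA3, MIR34AHG, MT-ND4, MTND2P28, MYH9, NEAT1, NT5E, SLC7A2, SNAI1 and TGIF1. No difference changed sign.

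Among the early response genes and their feedback factors, the difference was 3.09 for EGR3, 1.77 for KLF6, 1.16 for JUN, 0.58 for IER2 and 0.39 for JUNB. It was 1.70 for RNF39, 0.99 for CITED2, 2.89 for the phosphatase gene DUSP5, 1.53 for the ribonuclease gene ZC3H12A and 1.32 for the receptor inhibitor gene ERRFI1. Other members of the same families had negative differences, -2.70 for FOS, -2.05 for EGR1, -1.98 for ATF3, -0.89 for JUND, -0.88 for DUSP1 and -0.84 for ZFP36. The early genes ARC and RASD1, low in untreated HaCaT, had differences of -3.31 and -3.87, and SNAI1 of -2.91.

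For targets of YAP and TAZ the difference was 3.73 for CTGF, 0.76 for AMOTL2 and 0.56 for CYR61, and -0.56 for AXL and -0.45 for NT5E, both of which fell further in TIGK. In the TGF-beta, BMP and Notch pathways it was 0.53 for TGIF1, and -0.99 for FST and -1.52 for NRARP. Of growth factors and cell cycle genes, NRG1 had 0.66, CDKN1A 0.49 and GADD45A 0.46, while HBEGF had -0.55, PMAIP1 -0.63 and CCND2 -0.64.

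Of the mitochondrial genes with a difference past the test, each fell further in TIGK than in HaCaT. They numbered 7, and not all were named above. Among those named, the difference was -1.84 for MT-ND5, -0.94 for MT-CO1, -0.79 for MT-ND6, -0.68 for MT-ND4L, -0.54 for MT-CYB and -0.39 for MT-ND4. The copies MTCO1P12 and MTND2P28 had -0.88 and -0.39.

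Genes of protein and metabolic stress also differed. PPP1R15A had -0.77, HSPA1B -0.84 and CHAC1 -1.44. SLC30A1 fell less in TIGK, with a difference of 0.88, and TFRC and ALDH1A3 had -0.73 and -0.51. TIPARP had a difference of 1.12 and ADM of 0.85. Among genes that glucocorticoids induce and clock genes, SGK1 had 0.68 and BHLHE40 0.89, and PER1 -0.74.

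Of the adhesion and cytoskeletal genes, ITGA2, DSP and LAMA3 fell less in TIGK, with differences of 0.51, 0.46 and 0.35, and VCL and MYH9 fell further, with -0.58 and -0.40. CEMIP, SLC7A2 and FAM167A had -1.31, -1.27 and -1.44. For the protease gene PLAU the difference was 1.42 and for ARL14 2.71. The inflammatory genes CXCL1, CXCL8 and TNFRSF1B had -2.19, -1.61 and -2.81. NEAT1 had 1.32, CLK1 -0.54, and the noncoding AC104447.1, AC006058.1 and MIR34AHG -1.72, -1.46 and -3.60.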

How the results depend on the processing

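Of the 233 genes named, 197 were called, and 195 of these stayed called in the same direction under all 22 alternatives, which included DESeq2, a fit of the TIGK libraries alone, other size factors, other filters, the replicate block and each library left out. The exceptions were RASD1 and CBSL. The genes named came mostly from the largest changes among all genes or within a list, so this count does not describe all called genes. Among the named genes that were called, no value changed sign. Another scaling moved the median of all genes by at most 0.0133. The number of upregulated genes was 2571 with no filter on low counts, 2864 at an adjusted p below 0.05 and 135 with a log2 fold change past 1 required as well, where 468 were downregulated. Leaving out 1 library gave 1121 to 2366 upregulated and 1623 to 2432 downregulated genes, and DESeq2 gave 2180 and 2433. Positive differences between the lines numbered 686 with DESeq2, 769 with no filter, 847 at 0.05 and 101 past a log2 difference of 1, and 262 to 742 with 1 library left out. Negative ones numbered 1169 at 0.05, 87 past 1, and 212 to 636 with 1 library left out. The cause of these shifts was not tested beyond the stricter or looser limit itself. With replicate number as a block there were 1350 upregulated and 1887 downregulated genes, and 282 positive and 329 negative differences. Deviations from the group mean in treated and untreated libraries with the same number correlated at -0.00685, -0.0235 and -0.0204. With 3 libraries per group, whose deviations sum to 0, these values cannot show whether samples of the same number were paired. The main fit did not pair them. Genes of few counts, as most antisense RNAs and lincRNAs, are limited by depth.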
